A study of Homo sapiens with 8 samples.

Results

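MYC, MYCN, MAX, MXD1, MXD3, MXD4, MXI1, MNT, MGA and MLX encode the core of a family of transcription factors that bind DNA in pairs. The 10 genes were taken by symbol. All 10 were among the 26475 genes of the deposited table, and all 10 passed the filter on low counts that left 14008 genes for testing. They were compared between 4 libraries of BT474 cells labelled NPY1R high and 4 labelled NPY1R low. BT474 is an established human breast cancer line of luminal type with amplified ERBB2, and NPY1R encodes the Y1 receptor for neuropeptide Y. The series title concerns cells that tolerate lapatinib, which blocks the EGFR and ERBB2 kinases. For these libraries no drug, time or further genotype is named, and how high and low cells were obtained is not given in the sources used here. All libraries came from this single line, so they model no other tumour.

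MYC and MYCN hold a basic region and a helix-loop-helix leucine zipper, and they bind the E-box CACGTG only when paired with MAX. MAX also pairs with MXD1, MXI1, MXD3, MXD4, MNT and MGA. The MXD proteins, MXI1 and MNT recruit the SIN3 corepressor with histone deacetylases to the same sites, so they oppose MYC. MGA carries MAX into a Polycomb complex, PRC1.6, which silences germline genes. MLX, a relative of MAX, pairs with MondoA (MLXIP) and ChREBP (MLXIPL), which respond to glucose. MYC transcripts and MYC protein are both short-lived, and transcript counts carry no information on protein.

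NPY1R itself was 8.96-fold higher in the libraries labelled high (699.2 to 1049 against 90.84 to 103.7 CPM, counts scaled to a common library size). Libraries held 18025648 to 30609791 counts. They differed in how gene levels followed transcript GC content. For each library, log2 CPM minus the gene's mean over libraries was set against GC content, and Spearman's rho over all genes was 0.398, 0.00404, -0.423 and 0.107 in NPY1R high replicates 1 to 4, and 0.452, 0.431, -0.0321 and -0.555 in NPY1R low replicates 1 to 4. Genes are not independent replicates, so these values only describe the libraries. Summed luminal markers (KRT8, KRT18, KRT19, EPCAM, CDH1, ESR1, GATA3 and ERBB2) reached 7181 to 8262 CPM in NPY1R high and 7025 to 9277 CPM in NPY1R low. Single luminal markers differed between the groups in edgeR (37.5% of the list, against 13.6% of all tested genes). ESR1 (log2 fold change 0.59, SE 0.05) and GATA3 (0.60, SE 0.11) were higher in NPY1R high and EPCAM (-0.30, SE 0.05) was lower, each under all 27 alternatives. ERBB2 (-0.24, adjusted p 0.306) and CDH1 (-0.16, adjusted p 0.0982) were not called in the reported edgeR fit. Each was called lower in 3 of 27 alternatives. Immune markers summed to 1.432 to 2.268 and 1.647 to 2.767 CPM, mostly from CD68 and LYZ, with CD3E and HBB at 0 counts in every library. Stromal markers summed to 21.2 to 32.98 and 23.68 to 35.33 CPM, with COL1A2, PDGFRB and DCN at 0. Most of this came from COL1A1 (mean 14.06 CPM in NPY1R high and 15.45 in NPY1R low) and VWF (11.66 and 16.13). VWF was not called in the reported edgeR fit (adjusted p 0.0987) but was called lower in 4 of 27 alternatives. Basal markers summed to 7.97 to 11.51 and 7.355 to 10.25 CPM, with KRT14 at 0. Most of that came from TP63 (6.364 and 6.284) and OXTR (2.813 and 2.51).

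Of the 10 genes, 1 was called higher in NPY1R high, MYC, and 0 were called lower (edgeR's quasi-likelihood test, threshold 0.05 after Benjamini-Hochberg adjustment). Of all tested genes, 13.6% were called in either direction (5.78% of all tested genes higher and 7.81% lower), so a single call in 10 is near the background. Of all calls 42.5% were higher, a share that other scalings of the libraries moved to as much as 56.3%. The reported TMM scaling took NPY1R low replicate 4 as its reference library, and other references gave 49.5% to 53.1%. At an unadjusted p under 0.05 there was 1 member higher and 1 lower, and DESeq2 and limma-voom likewise called 1 higher and 0 lower. The median log2 fold change of the 10 genes was 0.08, against -0.029 for all tested genes. In bulk RNA, fewer cells of a kind and less RNA per cell cannot be told apart.

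**Figure D1:**
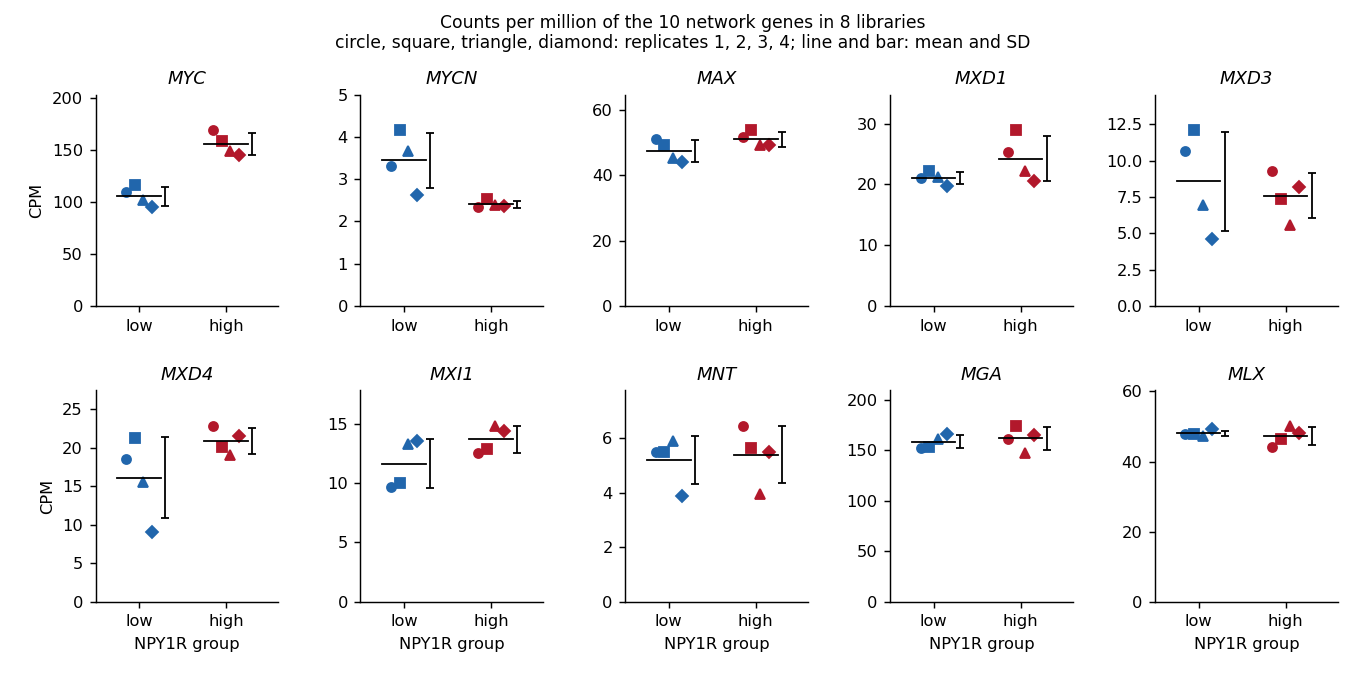
CPM (y axis, from 0) of each of the 10 genes in the 4 NPY1R low (blue) and 4 NPY1R high (red) libraries, with marker shapes for replicates 1 to 4 and the mean and SD of each group. MYC lies higher and MYCN lower in NPY1R high without overlap, and MXD3 and MXD4 spread most among the NPY1R low libraries.

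MYC (chr8:127735434-127741434 in GRCh38) had 169.5, 158.6, 149.5 and 145.3 CPM in NPY1R high replicates 1 to 4. In NPY1R low it had 109.7, 116.0, 102.0 and 94.97 CPM. Every NPY1R high library lay above every NPY1R low library. MYC rose 1.474-fold (95% interval 1.314 to 1.654), a log2 fold change of 0.56 (SE 0.07, n = 4 each) with an edgeR adjusted p of 0.000797. The log2 difference was 0.54 between replicates 1 and 2 of the groups and 0.583 between replicates 3 and 4. Across 27 other ways of fitting the data it stayed between 0.517 and 0.63, and MYC was called in each (largest adjusted p 0.00489). By size MYC ranked 485 among the 810 genes called higher, whose median log2 fold change was 0.672.

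MYCN, the paralogue of MYC better known from neural tumours, was scarce. It had 68, 68, 66 and 43 counts in NPY1R high and 99, 119, 80 and 67 in NPY1R low. This gave 2.336, 2.529, 2.388 and 2.368 CPM against 3.322, 4.168, 3.661 and 2.632 CPM. The groups did not overlap, as was the case for 20.2% of all tested genes, and the closest libraries were NPY1R low replicate 4 and NPY1R high replicate 2. The log2 fold change was -0.52 (SE 0.16, 95% interval -0.88 to -0.15), with an edgeR adjusted p of 0.0666, so MYCN was not called. It was called in 4 of 27 alternatives. These were a term for replicates 1 and 2 against 3 and 4 (adjusted p 0.0443), removal of the GC trend without (0.0489) and with (0.0466) a replicate block, and the fit without NPY1R low replicate 4 (0.0282). Over all alternatives its adjusted p reached 0.175. MYCNOS, which overlaps MYCN on the opposite strand, had at most 1 count in a library.

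MAX, the shared partner of all but MLX, had 51.77, 53.92, 49.32 and 49.23 CPM in NPY1R high. It had 50.97, 49.38, 45.16 and 44.03 CPM in NPY1R low, so the groups overlapped. The log2 fold change was 0.11 (SE 0.07, adjusted p 0.37 in edgeR), and the 95% interval of the fold ran from 0.9705 to 1.196. A change in MAX as large as that of MYC lies outside this interval. FNTB and the readthrough gene CHURC1-FNTB overlap MAX on the opposite strand, and how reads from both strands were counted is not given in the sources used here.

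**Figure D2:**
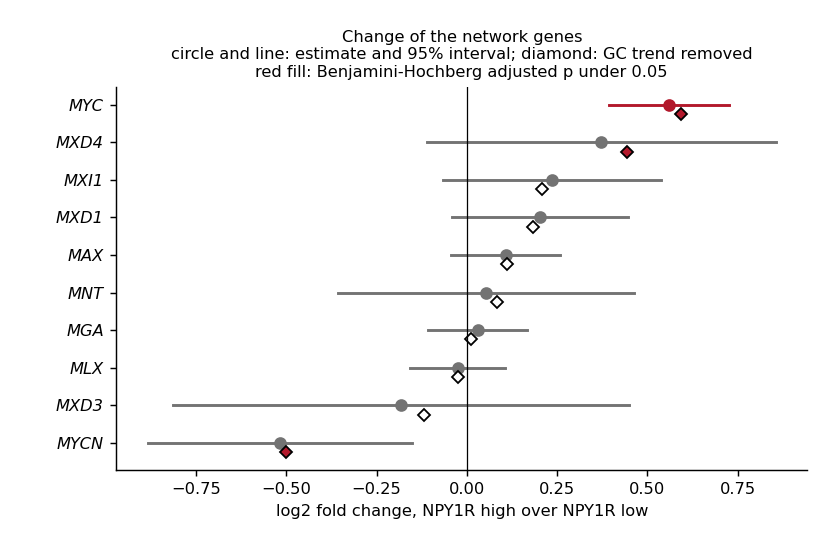
Log2 fold change of NPY1R high over NPY1R low for each of the 10 genes (x axis), with the 95% interval as a line and the estimate after removal of the GC trend as a diamond. MYC is called in both fits shown, and MXD4 and MYCN only in the one with the GC trend removed. MYCN was also called in fits, not shown here, that left the GC trend in place.

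Of the 4 MXD genes, MXD1 and MXI1 are given first. MXD1, often induced when cells differentiate, had 25.28, 28.97, 22.22 and 20.48 CPM in NPY1R high and 21.11, 22.28, 21.14 and 19.8 CPM in NPY1R low. Its log2 fold change was 0.20 (SE 0.11, adjusted p 0.286 in edgeR), and NPY1R high replicates 1 and 2 stood above all other libraries, though replicate 4 lay below 3 of the NPY1R low libraries. SNRNP27 overlaps MXD1 on the same strand. MXI1 had 12.57, 12.9, 14.84 and 14.37 CPM in NPY1R high and 9.664, 9.982, 13.32 and 13.51 CPM in NPY1R low. The groups overlapped, with a log2 fold change of 0.24 (SE 0.13, adjusted p 0.318 in edgeR). Neither was called in any of 27 alternatives, where the lowest adjusted p values were 0.11 for MXD1 and 0.0648 for MXI1.

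MXD3, which is found in dividing cells, had 9.307, 7.373, 5.551 and 8.158 CPM in NPY1R high. In NPY1R low it had 10.64, 12.12, 6.946 and 4.607 CPM, so both the highest and the lowest library were labelled low. Its log2 fold change was -0.18 with a wide interval of -0.81 to 0.45 (adjusted p 0.76 in edgeR). MXD4 had 22.85, 20.04, 19.03 and 21.53 CPM in NPY1R high and 18.52, 21.29, 15.56 and 8.995 CPM in NPY1R low. NPY1R low replicate 4 was the lowest for both genes. The log2 fold change of MXD4 was 0.37 (SE 0.22, 95% interval -0.11 to 0.86), with an adjusted p of 0.328 in edgeR. Among replicates 1 and 2 the groups differed by 0.107 and among replicates 3 and 4 by 0.771 on the log2 scale.

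MXD3 and MXD4 transcripts were GC-rich. Their median GC content was 67.3% and 64%, above that of 98.9% and 94.7% of tested genes. The library with the most negative GC trend, NPY1R low replicate 4, had the lowest level of each, and the 3 libraries with the most positive trends had the highest MXD3. MNT (61.2% GC) was likewise lowest in NPY1R low replicate 4 and NPY1R high replicate 3, the 2 libraries with the most negative trends. MXI1, at 47.8% GC, was lowest in NPY1R low replicates 1 and 2, whose trends were the most positive. With the trend removed, the SD of log2 CPM in NPY1R low was 0.149 in place of 0.267 for MNT and 0.226 in place of 0.259 for MXI1, and the groups still overlapped for both.

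**Figure D3:**
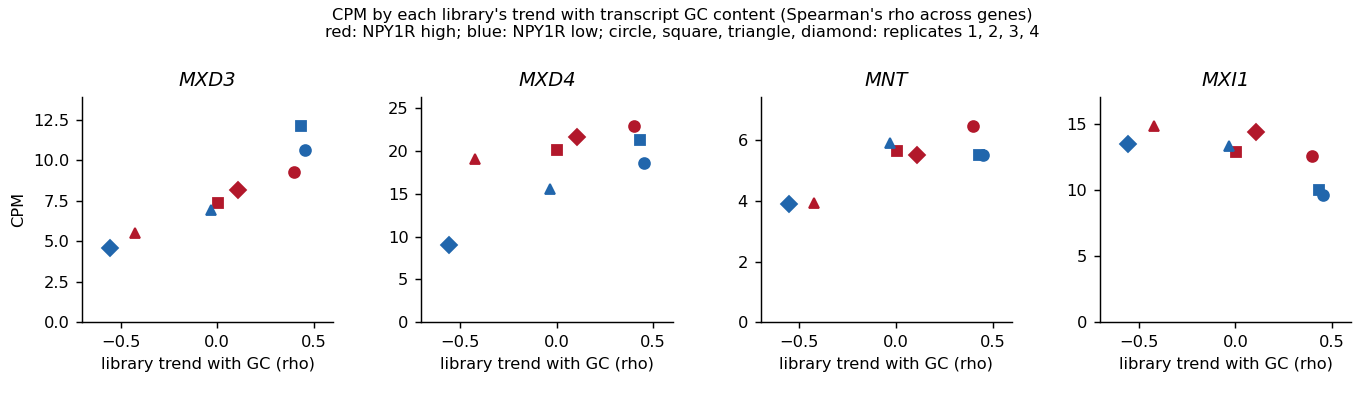
CPM of MXD3, MXD4, MNT and MXI1 (y axes, from 0) against each library's Spearman's rho of deviation with transcript GC content (x axis), in NPY1R high (red) and NPY1R low (blue). MXD3 goes from 4.607 CPM at a rho of -0.555 to 12.12 CPM at 0.431, while MXD4 lies higher in NPY1R high at similar rho.

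With the trend removed, the spread of MXD3 among NPY1R low libraries (SD of log2 CPM) went from 0.628 to 0.177, and that of MXD4 from 0.542 to 0.149. MXD4 then had log2 CPM values of 4.31, 4.35, 4.52 and 4.39 in NPY1R high and 3.96, 4.10, 3.96 and 3.74 in NPY1R low, with no overlap. In that fit MXD4 was higher by a log2 fold change of 0.44 with an edgeR adjusted p of 0.00402. With the replicate block added it was 0.45 (adjusted p 0.00416). Over all tested genes the fit with the GC trend removed called 1158 higher and 1759 lower, against 810 and 1094 in the reported fit. The share of all genes without overlap after the removal is not given here. The call of MXD4 therefore rested on the GC correction, since none of the other 25 alternatives gave one. MXD3 stayed uncalled after the correction (log2 fold change -0.12, adjusted p 0.492). For MXD3, 2 genes in the table overlap it, RAB24 on the same strand and PRELID1 on the opposite one. Its counts were not whole numbers, as happens where reads are divided between genes.

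The promoter of MXD4 holds 1 E-box within the 250 bases before its RefSeq start (chr4:2262110-2262359, minus strand, GRCh38.p14). It is shown because MXD4 was the MXD gene whose call depended on the GC correction. That correction used the GC content of transcripts and not of promoters. These promoter bases are 70.4% G or C. The sequence is written from 5′ to 3′, with the E-box in capitals.
MXD4: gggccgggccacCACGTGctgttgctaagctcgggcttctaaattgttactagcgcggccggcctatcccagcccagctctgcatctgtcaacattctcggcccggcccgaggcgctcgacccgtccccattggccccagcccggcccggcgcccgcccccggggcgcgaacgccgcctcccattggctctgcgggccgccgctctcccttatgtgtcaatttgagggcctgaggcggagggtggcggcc
Of the 27305 promoters in the RefSeq table, 6.49% hold CACGTG in this window, which reads the same on both strands, and 8.95% of the 10248 promoters of tested genes do. Among the members, 9 have an entry in that table (MYC does not), and 3 hold the E-box, in MXD4, MNT and MLX. A match is a string of letters and not a bound site.

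MNT, a large repressor expressed in most cells, had 6.459, 5.652, 3.944 and 5.507 CPM in NPY1R high and 5.503, 5.499, 5.903 and 3.889 CPM in NPY1R low (adjusted p 0.905 in edgeR). MGA, the largest protein of the network, had 161.3, 174.7, 147.3 and 165.0 CPM in NPY1R high and 152.7, 153.9, 161.6 and 166.7 CPM in NPY1R low (adjusted p 0.826). MLX had 44.2, 46.42, 50.25 and 48.01 CPM in NPY1R high and 47.79, 47.73, 47.4 and 49.21 CPM in NPY1R low (adjusted p 0.852). The groups overlapped for all 3. The intervals of the fold were 0.9288 to 1.122 for MGA, 0.8971 to 1.077 for MLX and 0.7807 to 1.378 for MNT, the least precise of the 3, with 99 to 188 counts. The direction for MLX was not fixed, since other scalings gave 0 to 0.03 in place of -0.025 on the log2 scale. PSMC3IP overlaps MLX on the opposite strand, and MLX counts were not whole numbers.

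Levels between genes were compared per kilobase of the longest coding transcript in GENCODE release 29. MYC was the most abundant member, at 65.82 ± 4.532 CPM per kilobase (SD, n = 4) in NPY1R high and 44.65 ± 3.859 in NPY1R low. MLX (18.26 ± 0.988 and 18.57 ± 0.3105), MAX (16.18 ± 0.7102 and 15.02 ± 1.052) and MGA (11.23 ± 0.7873 and 10.99 ± 0.4566) followed. The ranges of MLX and MAX touched in NPY1R high and did not in NPY1R low. MXD4, MXD3, MXD1 and MXI1 lay between 3.348 and 5.144 CPM per kilobase on average in both groups. In NPY1R low their ranges overlapped, while in NPY1R high MXD4 (4.693 to 5.633) overlapped with MXD1 but lay above MXI1 and MXD3. MYCN (0.9244 ± 0.03269 and 1.324 ± 0.2477) and MNT (1.079 ± 0.2104 and 1.041 ± 0.1789) were lowest, and their ranges overlapped. The middle of the order depends on transcript length. With the median coding transcript length MAX took the second place and MGA the third, and MXI1 exceeded the other MXD genes at 15.38 and 13.07. MYC was first by both lengths, and MYCN was last in both groups by the median length but, by the longest, only in NPY1R high.

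**Figure D4:**
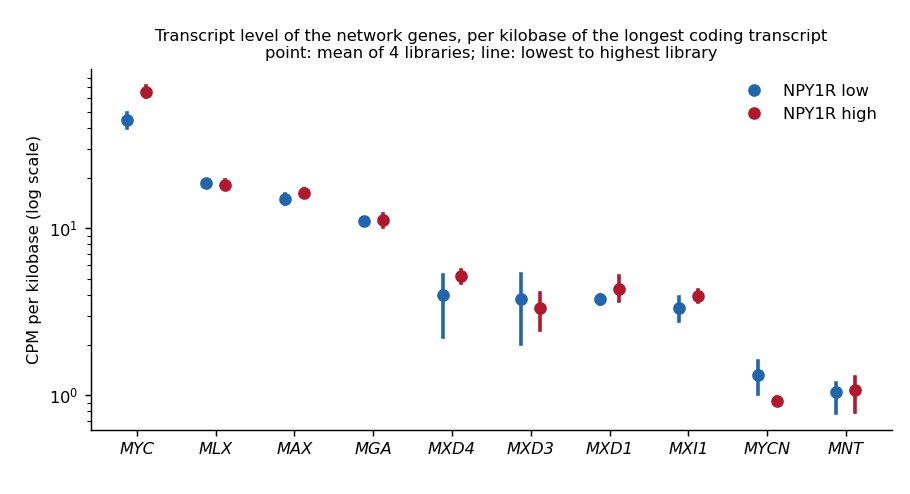
Mean CPM per kilobase of the longest coding transcript (y axis, log scale) of the 10 genes in NPY1R low (blue) and NPY1R high (red), with lines from the lowest to the highest library. MYC stands first in both groups, and MYCN and MNT stand last.

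MYC was set against the sum of MXD1, MXD3, MXD4 and MXI1 per kilobase in each library. The ratio was 4.006, 3.921, 4.106 and 3.675 in NPY1R high and 2.93, 2.808, 2.968 and 3.435 in NPY1R low. The groups did not overlap. On the log2 scale the ratio was 0.375 higher in NPY1R high, less than the change of MYC alone, as the MXD sum was 16.77 ± 1.04 in NPY1R high and 14.87 ± 2.439 in NPY1R low (SD, n = 4 each). NPY1R low replicate 4 came closest to the other group, with an MXD sum of 11.69. With median transcript lengths the difference was 0.402. With the GC trend removed, a setting added after values were seen, the ratio was 3.671 to 4.239 in NPY1R high and 2.801 to 3.497 in NPY1R low, a difference of 0.393, and NPY1R low replicate 4 still came closest. No test was made of this ratio, since it combines chosen members.

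Lists of genes that act with or respond to the network were written with earlier results of these data known, so they are described by counts only. The share to set beside each edgeR count is the 13.6% of all tested genes that were called. The other partners MYCL, MLXIP, MLXIPL and ZBTB17 (MIZ1, through which MYC represses) had 0 of 4 called in edgeR, DESeq2 and limma-voom, and 0 at an unadjusted p under 0.05. MLXIP, the MondoA gene, had 26.74 CPM in NPY1R high and 31.53 in NPY1R low (log2 fold change -0.24, adjusted p 0.241), and MLXIPL had 0.9195 and 0.7442 CPM. Among 17 MYC coactivators, such as TRRAP and EP400, 0 were called by any of the 3 tools and 0 had an unadjusted p under 0.05, with a median log2 fold change of -0.102. All 11 genes of the PRC1.6 complex besides MGA and MAX were tested and 0 were called by these tools (1 higher and 1 lower at an unadjusted p under 0.05), with a median of -0.045.

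Of 19 SIN3 and HDAC corepressor genes, edgeR called 0 higher and 2 lower (2 of 19, a smaller share than the 13.6% of all tested genes), with a median of -0.102. At an unadjusted p under 0.05, 1 was higher and 2 lower. DESeq2 called 1 higher and 1 lower, limma-voom 0 and 2, and edgeR with the GC trend removed 1 and 3. SAP30, a SIN3 subunit, fell from 34.17 ± 2.738 to 24.47 ± 1.825 CPM (SD, n = 4 each), with a log2 fold change of -0.48 (SE 0.08, edgeR adjusted p 0.00409). RBBP7, a histone-binding subunit of several complexes, had a log2 fold change of -0.20 (adjusted p 0.0457), and lost its call under all 10 other scalings, without any 1 of the 8 libraries and with the replicate block (0.0824). SIN3B, a scaffold of the complex, had 21.03 ± 2.881 CPM in NPY1R high and 16.49 ± 2.064 in NPY1R low (log2 fold change 0.35, SE 0.13) and was not called in the reported edgeR fit (adjusted p 0.105). It was called higher by DESeq2 (0.0346), with the GC trend removed (0.00494, and 0.00276 with the block), with the term for replicates 1 and 2 against 3 and 4 (0.0465) and without NPY1R high replicate 3 (0.0345). SIN3A, HDAC1 and HDAC2 were called under none of the 27 alternatives.

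Of 23 genes that control MYC protein stability, edgeR called 3 lower and 1 higher (17.4%, against 13.6% of all tested genes). With the GC trend removed 9 were lower, and with the term for replicates 1 and 2 against 3 and 4 there were 6. Those fits also called more of all 14008 tested genes lower, 1759 and 1681, against 1094 in the reported fit. AURKA, a mitotic kinase that also shields MYC proteins from degradation, fell from 461.2 ± 7.588 to 266.9 ± 28.45 CPM, a log2 fold change of -0.79 (SE 0.07, edgeR adjusted p 9.43e-05). PLK1, another mitotic kinase, fell by 0.98 (SE 0.16) and KIAA1524 (CIP2A), an inhibitor of the phosphatase PP2A, fell by 0.53 (SE 0.10) on the log2 scale. SKP2, a ubiquitin ligase subunit, rose by 0.21 (SE 0.05, adjusted p 0.0289) and lost its call without NPY1R high replicate 1 or 2 or NPY1R low replicate 1 or 3, and with the replicate block (adjusted p 0.0519 to 0.0924). FBXW7, HUWE1 and USP28 were called in no fit. Of 14 markers of cycling cells, 7 were lower and 0 higher in edgeR (50%, against 7.81% of all tested genes called lower). Of these 7, 6 were called under every alternative. CDK1 was not, as it lost its call under all 10 other scalings and kept it in 7 of 27 alternatives. The lower ones were led by BUB1 (61.06 CPM in NPY1R high against 122.4 in NPY1R low), CCNB1 (81.06 against 174.2) and BIRC5 (42.64 against 82.52). MKI67 and TOP2A had log2 fold changes of -0.98 and -0.67. The other 7 were not called in the reported fit. These were PCNA, MCM2, MCM3, MCM5, MCM6, TYMS and RRM2, with log2 fold changes from -0.30 (RRM2) to 0.12 (MCM3). The 14 markers summed to 1793 to 2263 CPM in NPY1R high and 2548 to 2686 CPM in NPY1R low. The part of cell cycle genes in the falls of AURKA, PLK1 and KIAA1524 was not tested.

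Ribosome biogenesis genes are the classic targets that MYC activates. All 50 on the list were tested, and 0 were called higher or lower in edgeR, against 13.6% of all tested genes. At an unadjusted p under 0.05, 3 were higher and 3 lower. DESeq2 called 1 higher and 0 lower, and limma-voom called 0. Their log2 fold changes ran from -0.33 to 0.20 with a median of -0.009, close to the -0.029 of all genes. NCL, the nucleolin gene, had 926.9 ± 40.62 CPM in NPY1R high and 930.3 ± 47.72 in NPY1R low, and FBL, the fibrillarin gene, had 74.8 ± 4.471 and 71.18 ± 3.222 CPM (SD, n = 4 each). Both were chosen as familiar members of the list after values were seen.

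**Figure D5:**
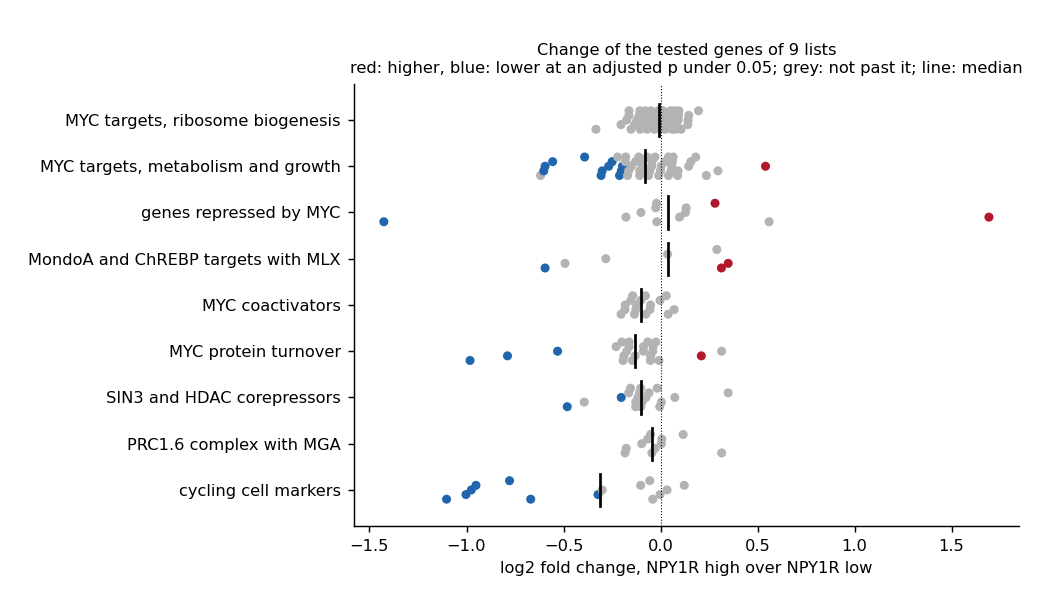
Log2 fold change of NPY1R high over NPY1R low (x axis) for every tested gene of 9 lists, with genes called higher in red, lower in blue and others in grey, and the median of each list as a line. Ribosome biogenesis genes cluster at a median of -0.009 with 0 calls, and metabolic MYC targets have 1 call higher and 11 lower.

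Of 48 tested MYC targets in metabolism and growth, 1 was called higher and 11 lower by edgeR (25%, against 13.6% of all tested genes), with a median log2 fold change of -0.081. ODC1, the first enzyme of polyamine synthesis, had 57.58 ± 5.146 CPM in NPY1R high and 87.39 ± 10.27 in NPY1R low (SD, n = 4 each). It fell, with a log2 fold change of -0.60 (SE 0.09, edgeR adjusted p 0.00214). PRPS2 of nucleotide synthesis (-0.31, SE 0.05), PSAT1 of serine synthesis (-0.25, SE 0.05) and the hexokinase gene HK2 (-0.60, SE 0.12) were also called lower. SLC16A1, the lactate transporter MCT1, rose from 6.955 ± 0.6936 to 10.11 ± 0.786 CPM, a log2 fold change of 0.54 (SE 0.11, adjusted p 0.00968). The number of falls depended on the scaling, and TMM references other than the reported NPY1R low replicate 4 gave 5 or 6. Of the 11, 5 were called under all 10 other scalings and 3 (ODC1, PRPS2 and HK2) under all 27 alternatives. Leaving out a library left 4 to 8 genes called lower, and 6 or fewer for any library but NPY1R low replicate 2.

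The lists were also divided by the E-box, and the difference between holders and others was not tested. In the metabolic list 14 of 43 promoters (32.6%) held CACGTG, and of these genes 0 were called higher and 1 lower, with a median log2 fold change of -0.081. The 29 genes without one had 0 called higher and 10 lower, with a median of -0.129. Only the 250 bases before the start were searched, so a gene without a match there may hold an E-box elsewhere. Of all tested genes, 7.81% were called lower. Only 5 of the 11 lower calls of this list held under all 10 other scalings. LDHA, the holder called lower, lost its call under all 10, as did EIF4A1, GMPS and ENO1 among the others. SLC16A1, the 1 gene of the list called higher, was not among the 43. In the ribosome biogenesis list 6 of 42 promoters (14.3%) held CACGTG, with a median of 0.067, against -0.003 for the other 36. CDK4, which encodes a kinase of the G1 phase, is shown because its promoter (chr12:57752311-57752560, minus strand, GRCh38.p14) had 3 E-boxes, which begin 216, 196 and 101 bases before the start and are in capitals.
CDK4: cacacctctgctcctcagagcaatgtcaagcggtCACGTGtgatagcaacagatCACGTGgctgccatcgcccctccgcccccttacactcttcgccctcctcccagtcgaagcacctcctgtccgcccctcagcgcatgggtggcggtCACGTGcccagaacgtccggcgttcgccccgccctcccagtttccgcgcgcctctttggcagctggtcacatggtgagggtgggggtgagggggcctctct
CDK4 had 184.6 ± 8.351 CPM in NPY1R high and 162.8 ± 12.33 in NPY1R low (SD, n = 4 each). The groups did not overlap, as was the case for 20.2% of all tested genes. The log2 fold change of 0.18 was not called in the reported edgeR fit (SE 0.06, adjusted p 0.0968). CDK4 was called higher in 14 of the alternatives. Among these were DESeq2 (adjusted p 0.02715), upper-quartile factors (0.02329) and the GC trend removed (0.01815). It was not called by limma-voom or with the replicate block alone.

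Of 12 tested genes that MYC is known to repress, 2 rose and 1 fell in edgeR (25%, against 13.6% of all tested genes). THBS1, which encodes the angiogenesis inhibitor thrombospondin, rose 3.231-fold from 97.27 ± 6.1 to 314.4 ± 29.45 CPM (SD, n = 4 each). KLF6, a zinc finger factor, rose by 0.28 (SE 0.07) on the log2 scale, and lost its call without NPY1R high replicate 1 (adjusted p 0.0607) or 2 (0.0573) or NPY1R low replicate 2 (0.0553). NDRG1, a stress and hypoxia gene, fell from 99.69 ± 43.4 to 37.1 ± 4.926 CPM, a log2 fold change of -1.43 (SE 0.29, edgeR adjusted p 0.00853). CDKN1A, the p21 gene, had 9.387 CPM in NPY1R high and 9.544 in NPY1R low (adjusted p 0.971), and CDKN2B had 1.322 and 0.8915 (adjusted p 0.22).

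Genes that MondoA and ChREBP activate with MLX were measured as a readout of that branch. Of 9, 7 were tested, and edgeR called 2 higher and 1 lower (42.9%, against 13.6% of all tested genes). DESeq2 and the fit with the GC trend removed called 3 higher, and the count was 1 to 3 without a library. TXNIP, which restrains glucose uptake, had 340.5 ± 20.45 CPM in NPY1R high and 267.5 ± 28.54 in NPY1R low (SD, n = 4 each). Its log2 fold change was 0.35 (SE 0.08, edgeR adjusted p 0.0152). ARRDC4, its relative with the same function, had a log2 fold change of 0.29 (SE 0.09) and was not called in the reported edgeR fit (adjusted p 0.0674). It was called in 11 of 27 alternatives, among them DESeq2 (0.033), the replicate block (0.0316), the GC trend removed (0.0137) and the fit without NPY1R low replicate 4 (0.01). KLF10 rose by 0.31 (SE 0.08), and HK2, also on the metabolic list, was lower. TXNIP lost its call without NPY1R low replicate 3 (adjusted p 0.0514). KLF10 lost it without NPY1R high replicate 2 (0.0583) or 3 (0.0544) or NPY1R low replicate 2 (0.0557).

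The promoters of MLX and TXNIP are shown because the first encodes the partner and the second is the textbook target of the MLX pairs. In MLX (chr17:42566850-42567099, plus strand, GRCh38.p14) the capitals mark an E-box that begins 50 bases before the start. In TXNIP (chr1:145996580-145996829, minus strand) they mark a pair of E-box-like elements 5 bases apart, which begins 88 bases before the start.
MLX: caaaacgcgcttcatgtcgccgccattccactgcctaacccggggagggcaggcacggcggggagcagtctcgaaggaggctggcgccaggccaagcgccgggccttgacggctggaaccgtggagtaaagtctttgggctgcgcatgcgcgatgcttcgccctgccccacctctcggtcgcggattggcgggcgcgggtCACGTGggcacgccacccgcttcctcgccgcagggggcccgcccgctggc
TXNIP: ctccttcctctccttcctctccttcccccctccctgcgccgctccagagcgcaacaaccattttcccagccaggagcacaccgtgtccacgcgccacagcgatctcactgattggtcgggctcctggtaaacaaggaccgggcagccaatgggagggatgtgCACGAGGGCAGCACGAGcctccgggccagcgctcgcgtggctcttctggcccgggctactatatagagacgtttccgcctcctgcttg
The paired motif was searched as 2 copies of CACGNG with any 5 bases between them and, for the other strand, 2 copies of CNCGTG, a form known from glucose-responsive promoters. It occurs in 16 of 27305 promoters (0.0586%). TXNIP was the 1 holder among the 6 promoters of the list with an entry, and 0 of the 9 network promoters hold it. ARRDC4 holds a single CACGTG, 210 bases before its start.

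The genes whose log2 CPM followed that of MYC most closely over the 8 libraries were ARHGEF10 (Pearson's r 0.997), PCYOX1L (0.993), GPC6 (0.991) and RAI14 (0.99), among genes with a mean of at least 5 CPM. All 8 libraries share the group difference, so any gene higher in NPY1R high with an even spread correlates with MYC. ARHGEF10, a guanine nucleotide exchange factor, had 32.29 ± 1.94 CPM in NPY1R high and 22.48 ± 1.558 in NPY1R low, a log2 fold change of 0.52 (SE 0.08). GPC6, a cell-surface proteoglycan, changed more, with 34.2 ± 5.046 and 14.47 ± 2.372 CPM and a log2 fold change of 1.24 (SE 0.14). PCYOX1L and RAI14 had log2 fold changes of 0.46 (SE 0.10) and 0.49 (SE 0.06).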

How the data were processed

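Per the submitters' processing notes, STAR 2.5.2, RSEM 1.3.0 and hg38 were used; their options and the annotation are not given in the sources used here. The authors deposited expected counts, unscaled, for each gene symbol; the table of the whole series was used, and the 8 single-sample tables held the same values (0 differed). Per the labels, RNA (200 ng) went into a stranded Illumina kit. Expected counts were rounded. Genes were filtered with filterByExpr (minimum count 10) and scaled by TMM, with NPY1R low replicate 4, the default choice, as the reference library. The groups were compared over 14008 genes with glmQLFTest of edgeR, with Benjamini-Hochberg correction (threshold 0.05). CPM uses TMM-scaled library sizes, and log2 CPM a prior count of 2. SE is the log2 fold change divided by the root of F. GENCODE release 29 gave transcript lengths and GC content (97.2% of tested genes had a GC value), and the GC correction removed a spline with 5 degrees of freedom from each library. Intervals over CPM rest on counts without molecular identifiers. The labels do not say that replicates were separate cultures, so p-values measure the spread between these libraries.

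The tools were edgeR 4.0.16, DESeq2 1.42.0 and limma 3.58.1 under R 4.3.3. The procedure was tested on simulated counts. Members and lists were chosen with earlier results of these data known, and the motif searches were added after values were seen. In each list, up to 4 called genes per direction with the smallest adjusted p were named, besides MKI67 and TOP2A, which were named whatever their p; other names there were chosen after their values were seen. Of the list symbols, 3 were matched by an older symbol. Alternatives were other scalings, TMM references, filters, DESeq2, limma-voom, unrounded counts, a replicate block, a term for replicates 1 and 2 against 3 and 4, the GC correction, leaving out each library, and a threshold of 0.01. The replicate numbers were not taken to pair libraries, since no label says that a number marks a shared culture or day. Same-numbered libraries deviated from their group means with correlations of 0.339, 0.157, 0.0907 and 0.0178 across genes. Differently numbered libraries were not compared in this way, so these values do not decide the pairing.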

Additional observations from a re-analysis of the deposited data

How the results depend on the processing

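MYC kept its direction and its call under every alternative run, also at an adjusted p under 0.01. MAX, MXD1 and MXI1 kept their direction and were never called. MLX, close to 0, changed sign with median-of-ratios factors (0.001), library totals (0.015), upper-quartile factors (0.03), no filter (0.015), 1 CPM in 4 libraries (0.017), DESeq2 (0.001) and the 7 other TMM references (0.0, 0.001, 0.006, 0.006, 0.008, 0.015 and 0.015), and ranged from -0.032 to 0.023 without a library. Without a library, MXD3 ranged from -0.357 to 0.031, MNT from -0.049 to 0.208 and MGA from -0.008 to 0.102. The count of members called was 2 higher and 1 lower with the GC offset, with and without the replicate block, and 1 lower with the term for replicates 1 and 2 against 3 and 4; without a library, 0 to 1 were lower. With the replicate block alone, 1 member was higher and 0 lower, MYC changed by 0.561 (adjusted p 0.000517), and the block changed no member's call.

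Over all genes, 810 were higher and 1094 lower. Lower genes numbered 1681 with the term (1205 higher), 1759 with the GC offset (1158 higher) and 1985 with offset and replicate block (1350 higher). At an adjusted p under 0.01 there were 470 higher and 562 lower. Without a library, 624 to 1068 were higher and 625 to 1064 lower, with 625, 710 and 678 without NPY1R high replicate 4, high replicate 3 and low replicate 1. Of the calls, 42.5% were higher with TMM, 56.3% with upper-quartile factors, 54% with library totals, 49.8% with median-of-ratios factors and 49.5% to 53.1% with other TMM references. The median of all genes moved by less than 0.1 between scalings.

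Ribosome biogenesis genes called higher were 1 or 2 in place of 0: 2 with upper-quartile factors, 1 CPM in 4 libraries and TMM references NPY1R low replicates 1 and 2, and 1 with the other TMM references, the other scalings, DESeq2, the term and both GC offsets; those lower were 1 with the term, 3 with the GC offset and 4 with the offset and block. Without a library, 0 to 1 were higher and 0 to 1 lower. Metabolic targets called higher were 2 in place of 1 with library totals, upper-quartile factors, 1 CPM in 4 libraries, DESeq2, the GC offset and 6 TMM references, 5 with the term and 4 with offset and block. Those called lower, 11 in the reported fit, were 6 with median-of-ratios factors and 1 CPM in 4 libraries, 5 with library totals, upper-quartile factors and no filter, 5 or 6 with other TMM references, 4 at an adjusted p under 0.01, and 4 to 8 without a library (1 to 2 higher). The causes were not tested. Counts of 43 to 119 limit MYCN, and MNT had 99 to 188.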

Other observations

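Germline genes are silenced by the MGA complex PRC1.6. Of 17 on the list, 6 passed the filter on low counts, and TDRD1, DAZL, TEX101 and SLC25A31 had 0 counts in every library. TDRKH (19.07 and 20.08 CPM in NPY1R high and low), ZCWPW1 and SMC1B (6.051 and 5.44 CPM) had the highest levels. The list summed to 38.44 to 44.22 CPM in NPY1R high and 36.43 to 40.74 CPM in NPY1R low. ZCWPW1, a histone methylation reader used in meiosis, was called higher (10.31 ± 0.6862 against 8.177 ± 0.2614 CPM, SD, n = 4 each, edgeR adjusted p 0.0408), and it kept the call without NPY1R high replicate 4 or NPY1R low replicate 4 and lost it without any other library (adjusted p 0.085 to 0.105) and with the replicate block (0.0883).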
